A study of Mus musculus with 4 samples.

Results

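The genes described here are 6 regulators of interstitial and mesenchymal lineages of the embryonic gonad and its neighbour, the mesonephros: the receptors Pdgfra and Pdgfrb, the ligand Wnt5a and the transcription factors Tcf21, Nr2f1 and Nr2f2. They were chosen by name, 6 of the 21495 genes in the deposited count table, and all 6 were found in it. Gonads and mesonephros of 4 pools of mouse embryos were profiled by single-cell RNA-seq with 10x Genomics 3′ chemistry. In XY KO pools of stages E11.5 and E11.75, called KO E11.5 and KO E11.75 here, both copies of the miR-17~92 microRNA cluster had been deleted by CRISPR/Cas9 in G4 embryonic stem cells, a hybrid line of C57BL/6J and 129. The XY control, at E11.5, came from the unedited G4 line, and all 3 XY pools were made by tetraploid aggregation. The XX control, at E11.5, came from crosses of C57BL/6J males with 129 females instead, so that it differed from the XY pools in sex, breeding and cell filtering at once. All pools carried the same strain label, C57BL/6 x 129S4/SvJae, and each pool combined several pairs of gonads.

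PDGFRA and PDGFRB are the receptor tyrosine kinases of the platelet-derived growth factors, and in the gonad they mark the mesenchyme from which fetal Leydig cells and other interstitial cells arise. TCF21 is a basic helix-loop-helix factor of mesodermal mesenchyme, and NR2F1 and NR2F2 (COUP-TFI and COUP-TFII) are closely related orphan nuclear receptors, of which NR2F2 is a classical marker of interstitial progenitors. WNT5A is a secreted ligand that acts mostly without beta-catenin, through ROR receptors and the planar cell polarity proteins.

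The miR-17~92 cluster lies in the host gene Mir17hg on mouse chromosome 14 and gives rise to 6 principal mature miRNAs, which fall into 4 seed families. They are shown because the deletion in the KO pools removes the genes of this cluster that encode them. Matches to their seeds were also searched for in the 3′ UTRs of the 6 genes. The mature miRNAs themselves were not measured. Sequences are from RefSeq (GRCm38.p6, plus strand), with bases 2 to 8, the seed, in capitals.
mmu-miR-17-5p: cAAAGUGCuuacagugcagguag
mmu-miR-20a-5p: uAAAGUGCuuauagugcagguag
mmu-miR-18a-5p: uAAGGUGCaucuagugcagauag
mmu-miR-19a-3p: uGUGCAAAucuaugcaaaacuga
mmu-miR-19b-3p: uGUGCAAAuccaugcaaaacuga
mmu-miR-92a-3p: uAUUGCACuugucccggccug

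miR-17-5p and miR-20a-5p share 1 seed, and so do miR-19a-3p and miR-19b-3p. In the longest annotated 3′ UTR of each gene (GENCODE M21, mm10), 3 of the 6 genes held a seed match. Pdgfra held 3 matches from 3 families in a 3′ UTR of 3115 bases, Tcf21 held 1 in 1022 bases and Wnt5a held 1 in 4508 bases. Nr2f1 with 760 bases and Nr2f2 with 2713 bases held none, and neither did Pdgfrb with 1678 bases. The matches are printed below with 8 flanking bases on each side, in lower case, and the match itself in capitals, since they distinguish the members from each other.
Pdgfra, miR-18 family, 8mer at bases 1205 to 1212: caacatcaGCACCTTActttttct
Pdgfra, miR-19 family, 8mer at bases 2198 to 2205: accactcaTTTGCACAgcctctgt
Pdgfra, miR-17 family, 7mer-m8 at bases 2885 to 2891: taactgttGCACTTTtgaatgtc
Tcf21, miR-18 family, 7mer-A1 at bases 673 to 679: aataccacCACCTTAcgaggact
Wnt5a, miR-92 family, 7mer-m8 at bases 3149 to 3155: tgtgtgatGTGCAATtaatagaa
An 8mer matches the whole seed and has an A opposite base 1 of the miRNA, a 7mer-m8 lacks that A, and a 7mer-A1 has it but lacks the match to base 8. Of 17292 genes with an annotated 3′ UTR, 12.3% held an 8mer of at least 1 of the 4 families and 43.3% held a match of any of the 3 kinds, so a match alone is common. A match is a description of the sequence and was not tested as a site.

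Levels are given as counts per 1000000 (CPM): the unique molecular identifiers (UMIs) of a gene summed over the cells of 1 type in 1 pool, relative to all UMIs of those cells. Each CPM is followed where needed by its exact 95% Poisson interval, and each log2 ratio between pools by its exact 95% binomial interval. These intervals cover counting error only. With 1 pool per group, no test between groups was possible and no p-value is given, and neither cells nor sequencing runs are replicates. UMIs of 3′ chemistry were not divided by gene length, so levels are compared between cell types and pools and not between genes. In pooled sums, fewer cells that express a gene and less RNA per cell cannot be told apart.

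The 4 pools held 52745 cells after the filters of the authors. Cells of the XX control were deeper, at a median of 15509 UMIs, than those of the XY pools, whose medians lay between 3893 and 4763. The pools differed in their mitochondrial share of UMIs, which ran from 3.2% in the XX pool to 5.64% in KO E11.75. Mir17hg, counted from the 3′ end of its transcript and so no check of the deletion itself, was at 19.8 and 18.2 CPM over all cells of the XY and XX controls, and at 156 and 161 CPM in KO E11.5 and E11.75. Both KO libraries thus stood apart from both control libraries in this transcript. The cell counts that the methods of the study give for the KO pools are exchanged relative to the sample labels, and the labels were followed here. The pool labelled KO E11.75 is the one with a single run, which the methods also give for that stage, and it held 168 Sertoli cells against 24 in KO E11.5. Of 52400 cell barcodes, 345 occurred in more than 1 of the 7 sequencing libraries.

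Cell types were the deposited clusters, which the authors named by marker expression in these cells. Levels by type are therefore not independent of the types. Several names used here differ from the deposited ones. Mesonephric mesenchyme was deposited as Mesonephros, interstitial progenitors as Interstitial cells and coelomic epithelium as Epithelial. Pre-supporting cells were deposited as Bipotential progenitors, and Sertoli cells as Supporting. The 2 types in which these genes are mainly described are the gonadal interstitial progenitors, with 1305, 1191, 717 and 227 cells in XY control, both KO stages and XX control, and the mesonephric mesenchyme, with 11121, 8863, 3865 and 1714 cells in the same order. Against markers that are not among the 6 genes, the interstitial name held in part: 2 to 4 of 8 interstitial markers were highest in this type in each pool, whereas Ptch1 and Gli1 were highest elsewhere in all 4 and Lhx2 stayed at 1.16 CPM or less. Of 8 mesenchymal markers, 5 or 6 were highest in the mesonephric mesenchyme in each pool.

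Pdgfra was highest in interstitial progenitors in all 4 pools and second in the mesonephric mesenchyme, while Pdgfrb was highest in the mesonephric mesenchyme in all 4, by a fold over interstitial progenitors of 1.08 (0.963 to 1.20) in the XX pool, where these types could not be separated. In interstitial progenitors Pdgfra stood at 322 CPM (306 to 339) in the XY control, 385 (368 to 402) in KO E11.5, 753 (721 to 787) in KO E11.75, while the XX pool gave 208 (193 to 224). In the mesonephric mesenchyme it stood at 215, 241, 429 and 155 CPM in the same order. In both types the XX control was lowest and KO E11.75 highest, with no overlap between the intervals of any 2 pools. By sequencing run, interstitial Pdgfra overlapped between run 1 of the XY control (304 to 349) and run 2 of KO E11.5 (342 to 388). In the XY control the next types were coelomic epithelium at 128 CPM and Sertoli cells at 108 CPM (98.1 to 118), above pre-supporting cells at 53.9 CPM (48.9 to 59.3). Germ cells, which are not mesenchymal, gave 5.01 to 9.78 CPM in the 4 pools, the background against which low Pdgfra values stand.

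Pdgfrb stood at 183 CPM (179 to 187) in the mesonephric mesenchyme of the XY control, 145 (141 to 149) in KO E11.5, 281 (272 to 290) in KO E11.75, while the XX pool gave 112 (108 to 116). In interstitial progenitors it stood at 119 CPM (110 to 129), 62.1 (55.5 to 69.3), 144 (130 to 159) and 104 (93.5 to 116). KO E11.5 was thus the lowest pool in interstitial progenitors, where the XY and XX controls overlapped, but not in the mesenchyme, where the XX control was lowest. In pre-supporting cells Pdgfrb was at 9.13 CPM in the XY control, so the interstitial level was 13.1 times as high (10.2 to 16.9). For Pdgfra the same comparison gave 5.98 times (5.37 to 6.67). Pdgfrb lies on mouse chromosome 18 (61045150 to 61085061, plus strand, mm10) and Pdgfra on chromosome 5 (75152292 to 75198215, plus strand).

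**Figure D1:**
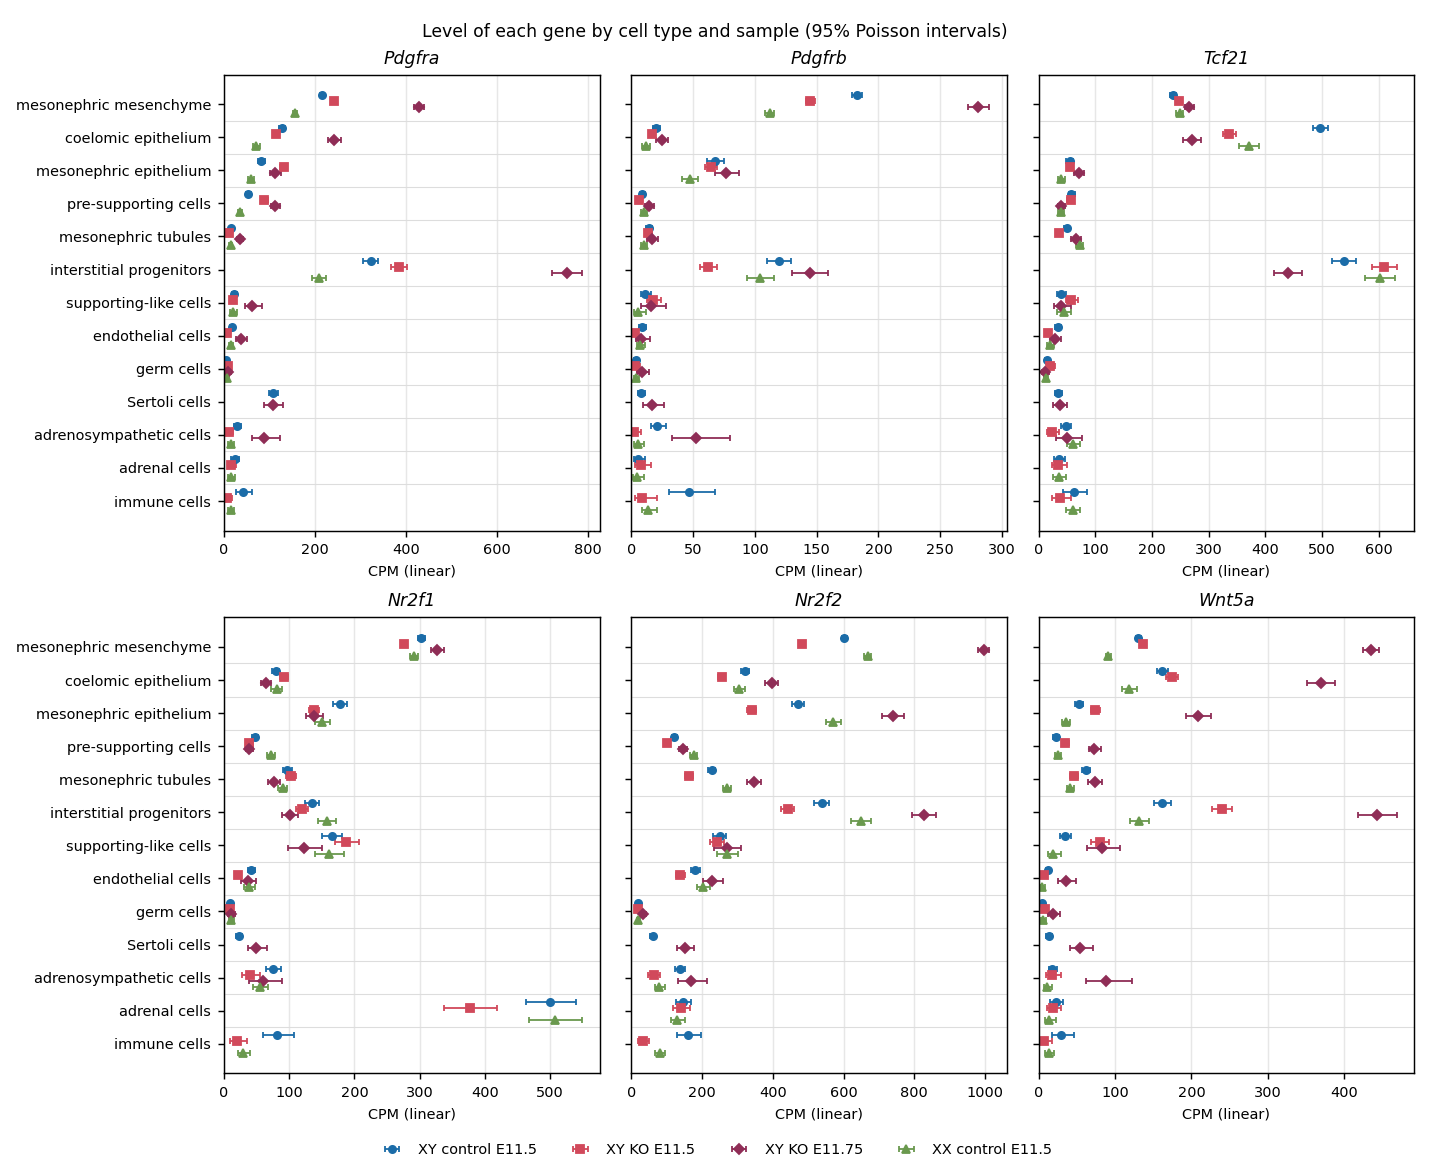
CPM on linear axes (horizontal) by cell type (vertical) for the 6 genes, 1 panel a gene, with 1 point a pool and 95% Poisson intervals, for types with at least 50 cells in that pool. In the XY control Pdgfra and Tcf21 peak in interstitial progenitors, Wnt5a stands level there and in coelomic epithelium, Pdgfrb and Nr2f2 peak in the mesonephric mesenchyme, and Nr2f1 peaks in adrenal cells.

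The balance of the 2 receptors differed between some cell types and overlapped between others. Of all UMIs of either receptor, Pdgfra made up 54.1% (53.3 to 54.8, Clopper-Pearson) in the mesonephric mesenchyme of the XY control, 73% (71 to 74.9) in interstitial progenitors, 86.3% (84.5 to 87.9) in coelomic epithelium and 93.1% (90.5 to 95.2) in Sertoli cells. Mesonephric epithelium, at 54.7% (51.4 to 57.9), overlapped the mesenchyme, and pre-supporting cells, at 85.5% (82.1 to 88.5), overlapped coelomic epithelium. In the mesenchyme the share lay above the XY control in the other 3 pools, at 62.4% in KO E11.5, 60.4% in KO E11.75 and 58.1% in the XX pool. In interstitial progenitors it was 86.1% (84.6 to 87.5) and 83.9% (82.4 to 85.4) in KO E11.5 and E11.75, and 66.6% (63.7 to 69.5) in the XX pool. Both KO pools were therefore above both controls in interstitial progenitors and in the mesenchyme, with intervals of KO and control pools that did not overlap. The shares had the same order, with some overlap of intervals, in coelomic epithelium, mesonephric epithelium and pre-supporting cells. A KO pool was below the XY control in mesonephric tubules, supporting-like cells and Sertoli cells, so the order of this share was not general. Since this ratio is taken within a pool, it does not depend on the total used for scaling. Pdgfra has the longer annotated 3′ UTR, and genes with long 3′ UTRs were higher in KO E11.75 but not in KO E11.5, as described further on. The part of 3′ UTR length in the receptor share was not tested.

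Wnt5a had a less exclusive pattern, with interstitial progenitors, coelomic epithelium and mesonephric mesenchyme close together. In the XY control these 3 types stood at 162 CPM (151 to 174), 162 (154 to 170) and 130 (127 to 134), so that the first 2 could not be separated. In KO E11.5 they stood at 240, 174 and 136 CPM, with interstitial progenitors first and no overlap. In KO E11.75 all 3 were above 300 CPM, at 442 (418 to 468), 370 (352 to 388) and 435 (424 to 446), and the interstitial and mesenchymal intervals overlapped. In the XX control they stood at 131, 119 and 91.2 CPM, the lowest of the 4 pools in each of these types. Germ cells gave 4.59, 7.82, 19.3 and 6.09 CPM, so that the low background level was also highest in KO E11.75. Wnt5a lies on chromosome 14 (28504750 to 28527448, plus strand, mm10), as does the miR-17~92 host gene (115042879 to 115046727).

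Among the transcription factors, Tcf21 differed most between interstitial progenitors and pre-supporting cells. In interstitial progenitors it stood at 539 CPM (518 to 560) in the XY control, 610 (589 to 632) in KO E11.5, 440 (415 to 465) in KO E11.75, while the XX pool gave 602 (576 to 629). KO E11.75 was the lowest of the pools, whereas it was the highest for the receptors and Wnt5a. The 2 sequencing runs of the XY control gave 594 CPM (565 to 625) and 474 (446 to 504) for Tcf21, and the second overlapped KO E11.75. In the mesonephric mesenchyme the 4 pools lay within a narrow range, from 237 to 266 CPM. Coelomic epithelium was second, at 497, 337, 270 and 371 CPM, with the XY control highest there and KO E11.75 lowest. In KO E11.75 its interval (255 to 286) overlapped that of the mesenchyme (258 to 275). The interstitial level of the XY control was 9.28 times (8.39 to 10.3) that of pre-supporting cells. Tcf21 lies on chromosome 10 (22817281 to 22820174, minus strand, mm10).

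Nr2f2 was spread over the mesenchymal types and the mesonephric epithelium, and Nr2f1 was lower in interstitial progenitors than in the mesenchyme in every pool. Nr2f2 stood at 602, 483, 996 and 668 CPM in the mesonephric mesenchyme of XY control, both KO stages and XX control, and at 538, 442, 827 and 649 CPM in interstitial progenitors. In both types KO E11.5 was the lowest pool and KO E11.75 the highest, and no 2 intervals overlapped. By sequencing run, interstitial Nr2f2 overlapped between run 1 of the XY control (529 to 588) and run 2 of the XX control (581 to 657). Nr2f1 was at 303, 276, 327 and 291 CPM in the mesenchyme, but at 135 CPM (125 to 146), 119 (110 to 129), 101 (89.1 to 114) and 157 (144 to 172) in interstitial progenitors. Its highest level was in adrenal cells, at 500 CPM (463 to 539) in the XY control, 377 (338 to 419) in KO E11.5 and 507 (468 to 549) in the XX pool. KO E11.75 held 8 adrenal cells only, with 20 Nr2f1 UMIs, and gives no usable level there. Nr2f1 lies on chromosome 13 (78188973 to 78199757, minus strand, mm10) and Nr2f2 on chromosome 7 (70351944 to 70366735, minus strand).

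The share of Nr2f1 among UMIs of both COUP-TF genes put adrenal cells apart from all others. It was 77.3% (74.4 to 80.1) in adrenal cells of the XY control, 72.8% in KO E11.5 and 79.5% in the XX pool, against 33.5% (33 to 33.9) in the mesonephric mesenchyme and 20.1% (18.7 to 21.5) in interstitial progenitors of the XY control. In interstitial progenitors the share was 21.2% (19.8 to 22.8) in KO E11.5 and 19.5% (18 to 21.1) in the XX pool, both overlapping the XY control, but 10.9% (9.67 to 12.2) in KO E11.75. In the mesenchyme it was 36.4% in KO E11.5, 24.7% in KO E11.75 and 30.3% in the XX pool. KO E11.75 had the lowest share in both types. Its share was lowest in other types too, such as coelomic epithelium at 14% and pre-supporting cells at 21%. Endothelial cells were an exception, at 13.8% in KO E11.75 and 13.3% in KO E11.5. Nr2f2 has the longer annotated 3′ UTR, and genes with long 3′ UTRs were higher in KO E11.75, as described further on. The part of 3′ UTR length in this share was not tested.

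**Figure D2:**
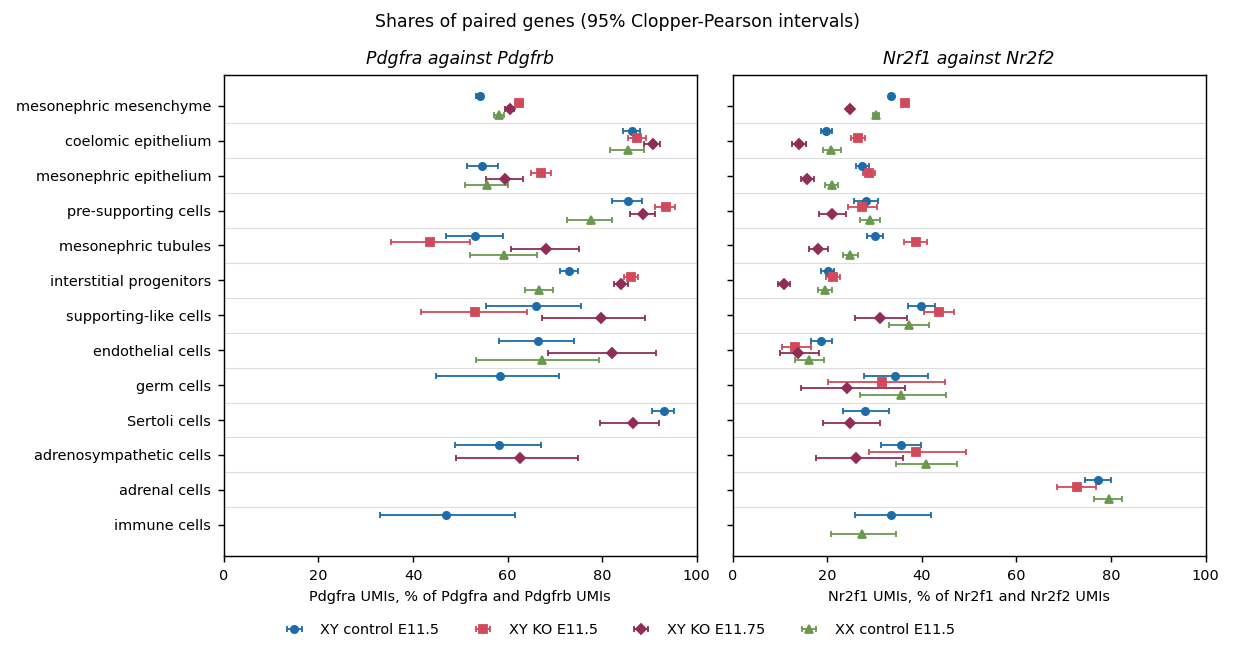
Share of Pdgfra among Pdgfra and Pdgfrb UMIs (left) and of Nr2f1 among Nr2f1 and Nr2f2 UMIs (right), in percent, by cell type, with 1 point a pool and 95% Clopper-Pearson intervals. On the left, both KO pools lie above both controls in interstitial progenitors and in the mesonephric mesenchyme. On the right, adrenal cells lie at 72.8% to 79.5%.

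The comparison of KO E11.5 with the XY control sets pools with and without the cluster side by side at the same stage. The pools also differed in globin limits and depth, with medians of 4209 and 3483 UMIs in interstitial progenitors. With 1 pool each, these differences and the deletion cannot be told apart. In interstitial progenitors 1 of the 6 genes was past 1.5-fold, and it was lower: Pdgfrb, with a log2 ratio of -0.94 (-1.14 to -0.74). Of 9150 genes compared, 6.12% were past 1.5-fold lower and 1.44% higher. Wnt5a was just short of the threshold, at 0.57 (0.44 to 0.70), a value above those of 98.4% of all genes compared. Pdgfra was at 0.25 and Tcf21 at 0.18, whereas Nr2f1 was at -0.18 and Nr2f2 at -0.28. The median of all genes was -0.13, so Pdgfra, Tcf21 and Wnt5a lay further from the median than from 0. For Pdgfrb, only 1.28% of all genes had a lower ratio. Its level was 125 and 113 CPM in the 2 sequencing runs of the XY control and 58.4 and 65.6 CPM in those of KO E11.5, so the runs of the pools did not overlap.

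In the mesonephric mesenchyme none of the 6 genes was past 1.5-fold in KO E11.5, where 2.04% of 13111 genes were past it higher and 4.5% lower. Pdgfrb was again lowest, at -0.33 (-0.38 to -0.28), and Nr2f2 was next at -0.32 (-0.34 to -0.29). Pdgfra was highest, at 0.17 (0.12 to 0.21). Wnt5a was at 0.06, at -0.09 with run 1 only and at 0.29 (0.20 to 0.38) in the first of 4 mesenchyme sub-clusters of the deposited annotation, described further on. In pre-supporting cells Pdgfra and Wnt5a were both past the threshold, at 0.71 and 0.61, where 2.71% of all genes were past it higher. In supporting-like cells Wnt5a was at 1.20 (0.84 to 1.58), where 1.72% were past it higher. Tcf21 in coelomic epithelium was at -0.56 (-0.63 to -0.50), just inside it.

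KO E11.75 was compared with the XY control of the earlier stage E11.5, so that stage and deletion cannot be told apart in it. In interstitial progenitors 3 of the 6 genes were past 1.5-fold and all 3 were higher: Wnt5a at 1.45 (1.32 to 1.58), Pdgfra at 1.22 (1.13 to 1.32) and Nr2f2 at 0.62 (0.54 to 0.70). Of 8673 genes compared, 14.2% were past it higher and 7.49% lower, with a median of 0.13. Wnt5a lay above 99.5% and Pdgfra above 99.1% of these genes, whereas Nr2f2 lay above 87.6%. Tcf21 and Nr2f1 were below the control, at -0.29 and -0.42, and neither was past the threshold.

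In the mesonephric mesenchyme of KO E11.75, 4 of the 6 genes were past 1.5-fold higher: Wnt5a at 1.74 (1.69 to 1.79), Pdgfra at 0.998 (0.95 to 1.04), Nr2f2 at 0.73 and Pdgfrb at 0.62. Among 12545 genes 13.8% were past it higher and 7.43% lower, with a median of 0.15. Tcf21 at 0.17 and Nr2f1 at 0.11 were close to that median. After scaling by TMM factors Nr2f2 at 0.57 and Pdgfrb at 0.46 were no longer past the threshold, and in interstitial progenitors Nr2f2 was at 0.46. Pdgfrb was also short of it in cells with at least 3000 UMIs, at 0.53, and in sub-clusters 2, 3 and 4 of the mesenchyme, at 0.57, 0.54 and 0.36. Nr2f2 was at 0.31 (0.14 to 0.47) in sub-cluster 4. Wnt5a and Pdgfra stayed past it in both types under the TMM scaling. With run 1 only, Nr2f2 in interstitial progenitors was at 0.57.

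Genes with long 3′ UTRs were higher in KO E11.75 than genes with short ones, and Wnt5a, Pdgfra and Nr2f2 have long 3′ UTRs. In interstitial progenitors the median log2 ratio was 0.35 in the quartile of genes with the longest 3′ UTRs and -0.21 in the quartile with the shortest. In the longest quartile 25.1% of genes were past 1.5-fold higher. Within that quartile Wnt5a still lay above 99.3% and Pdgfra above 98.6% of genes, whereas Nr2f2 lay above 77.8%. In the mesenchyme the corresponding values for Wnt5a, Pdgfra and Nr2f2 were 99.2%, 94.9% and 87.6%. The trend ran the other way in KO E11.5 and the XX control. In interstitial progenitors the longest and shortest quartiles had medians of -0.19 and -0.07 in KO E11.5 and -0.22 and 0.02 in the XX control. In the longest quartile of the XX control, Pdgfra lay above 9.47% of genes, Wnt5a above 38.9% and Nr2f2 above 95.2% in interstitial progenitors. In the mesenchyme these were 20%, 16% and 92.5%. The part of 3′ UTR length in the levels of Wnt5a, Pdgfra and Nr2f2 was not tested beyond these ranks.

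Set against KO E11.5, KO E11.75 gives the 2 stages within the KO, with 1 pool each and 1 run for E11.75. The 3′ UTR length trends of these 2 pools against the XY control, given above, ran in opposite directions. In interstitial progenitors Pdgfrb was higher at E11.75 by a log2 ratio of 1.22 (0.999 to 1.43), Pdgfra by 0.97, Nr2f2 by 0.90 and Wnt5a by 0.88. Tcf21 was lower, at -0.47 (-0.57 to -0.38), and Nr2f1 was at -0.24. The mesenchyme gave Wnt5a at 1.68, Nr2f2 at 1.04, Pdgfrb at 0.95 and Pdgfra at 0.83, with Tcf21 at 0.10 and Nr2f1 at 0.24. Wnt5a, Nr2f2 and both receptors were thus past 1.5-fold higher in both types. Of all genes 25.8% were past it higher and 7.03% lower in interstitial progenitors, with a median of 0.28, and 22.8% and 7.45% in the mesenchyme, with a median of 0.25. In sub-cluster 3 of the mesenchyme Pdgfra was at 0.38, near that median. The Tcf21 ratio of 0.10 summed opposite directions, with 0.86 (0.75 to 0.98) in sub-cluster 3 of the mesenchyme and -0.34 in sub-cluster 1.

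Across the cell types with at least 50 cells in each pool and 100 UMIs over both, the counts of types by direction differed between genes. In KO E11.75 against the XY control, Wnt5a had an interval above 0 in 9 of 9 types and was past 1.5-fold in 8 of them, where 9.77% to 19.1% of all genes were past it higher in the 9 types. Pdgfra had an interval above 0 in 9 of 10 types, and Nr2f2 in 9 of 11. Pdgfrb had one above 0 in 3 of 6 types, and Nr2f1 had one below 0 in 6 and above 0 in 2 of 10, with 1 type past 1.5-fold, Sertoli cells at 1.10, higher. In KO E11.5 Nr2f2 instead had an interval below 0 in 9 of 12 types and above 0 in none. Nr2f1 had one below 0 in 7 of 10 types there and above 0 in 1. The share of all genes with such intervals was not counted. In interstitial progenitors and mesenchyme the median of all genes was -0.13 and -0.09 in KO E11.5, and 0.13 and 0.15 in KO E11.75. Nr2f2 was above the median gene in 2 of 12 types of KO E11.5 and in 11 of 11 of KO E11.75. The log2 ratio of Wnt5a at E11.75 ran up to 2.04 in Sertoli cells, where it rested on 55 and 56 UMIs at 13.2 and 54.6 CPM. It was 1.99 in mesonephric epithelium, with 52.7 CPM in the XY control and 209 CPM in KO E11.75. Germ cells, the background for low values, had fewer than 100 UMIs of Wnt5a and were not among the 9 types. Their Wnt5a level, given above, was also higher in KO E11.75, by a fold close to that in Sertoli cells. Tcf21 differed in direction by type at E11.75, with intervals above 0 in 3 and below 0 in 3 of 11 types, and was past 1.5-fold in 1, coelomic epithelium at -0.88 (-0.97 to -0.79), where 5.81% of all genes were past it lower.

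The XX control was compared with the XY control at the same stage. In interstitial progenitors 1 of the 6 genes was past 1.5-fold, Pdgfra, which was lower at -0.63 (-0.76 to -0.50). Of 8645 genes 7.94% were past it lower and 1.27% higher. In the mesonephric mesenchyme 1 gene was past it, Pdgfrb, which was lower at -0.71 (-0.77 to -0.65), where 8.31% of 12819 genes were past it lower and 1.76% higher. Pdgfra in the mesenchyme was at -0.47 and Wnt5a at -0.52. Nr2f2 was above the XY control in both types, at 0.27 (0.19 to 0.35) and 0.15 (0.12 to 0.18), and Tcf21 was at 0.16 and 0.07. The latter turned to -0.02 in cells with at least 3000 UMIs, to -0.06 with run 1 only and to -1.02 in sub-cluster 4 of the mesenchyme, with 19 and 101 UMIs. After scaling by TMM factors, Pdgfra in interstitial progenitors was at -0.53, and with run 2 only at -0.49, both short of the threshold. Genes with long 3′ UTRs tended lower in this comparison, as given above. Sex, breeding, depth and filtering cannot be told apart in it.

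**Figure D3:**
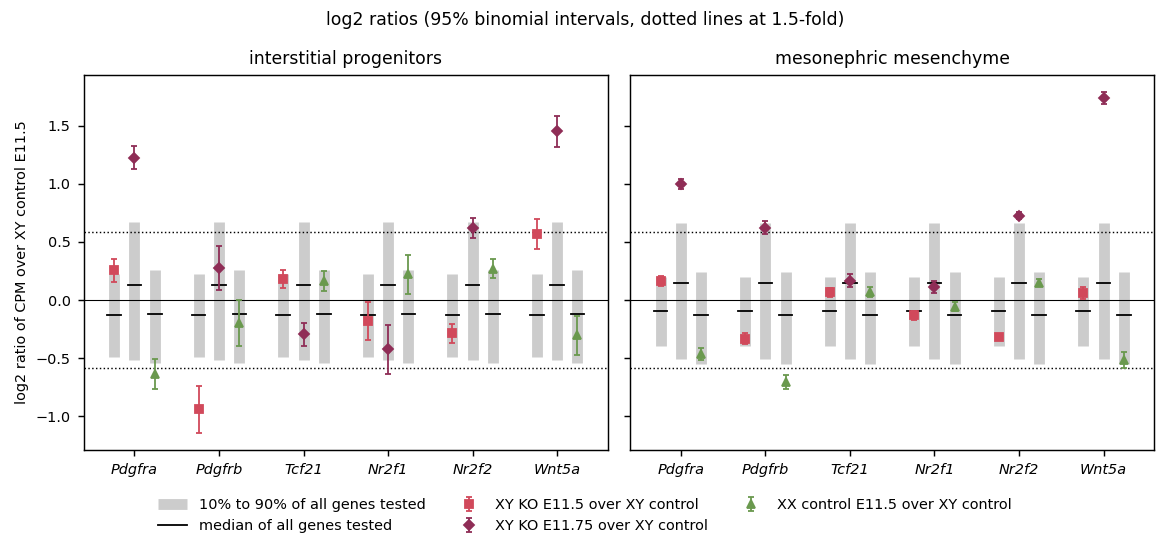
Log2 ratio of CPM relative to the XY control (vertical) for the 6 genes in 2 cell types, with 95% binomial intervals, for KO E11.5, KO E11.75 and XX control E11.5. Grey bars span the middle 80% of all genes compared and black ticks mark their median. Wnt5a and Pdgfra in KO E11.75 and Pdgfrb and Wnt5a in interstitial progenitors of KO E11.5 lie farthest outside the bars.

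Technical runs give a scale for these differences. Each E11.5 pool was profiled in 2 technical runs, and the 6 genes in 3 pools gave 18 differences between runs in each cell type. In interstitial progenitors the median size of the log2 difference was 0.13 and the largest 0.46, for Pdgfrb in the XX pool, at 121 and 87.6 CPM. In the mesonephric mesenchyme the median was 0.05 and the largest 0.25, for Wnt5a in KO E11.5. Ratios between pools under 0.46 in size in interstitial progenitors did not exceed the largest difference between runs. Runs come from 1 pool and do not measure the spread between embryos.

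The deposited annotation divides the mesonephric mesenchyme into 4 sub-clusters, and the 6 genes were unequal among them. Sub-cluster 2 was led by cell cycle genes such as Top2a and Aurkb, sub-cluster 3 by Sfrp2, Cxcl12 and Tbx18, sub-cluster 4 by nephric genes such as Pax8, Lhx1 and Pax2, and sub-cluster 1 by Igfbp3, Agtr2 and Gata2. In the XY control, Wnt5a stood at 165 and 155 CPM in sub-clusters 1 and 2 but at 65.8 and 38.6 CPM in 3 and 4. Nr2f1 was highest in sub-cluster 3, at 453 CPM against 237 to 291 CPM in the others. Sub-cluster 4 had little Tcf21, at 36.1 CPM against 223 to 285 CPM elsewhere, and little Pdgfrb, at 35 CPM, while it had Nr2f1 at 291 CPM and Nr2f2 at 356 CPM, against 566 to 655 CPM of Nr2f2 elsewhere. Thus 5 of the 6 genes were lowest in the sub-cluster with nephric genes, and Nr2f1 was not.

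The pools held these sub-clusters in different shares, so the sums over the mesenchyme were also compared within each. Sub-cluster 1 held 38.9% of mesenchyme cells in the XY control, 27.1% in KO E11.5, 49.2% in KO E11.75 and 32% in the XX pool. Wnt5a in KO E11.75 was at 613, 432, 189 and 118 CPM in sub-clusters 1 to 4, above all other pools in each of them. For Pdgfra the corresponding levels were 461, 476, 388 and 120 CPM, again above the other pools in each. Over the XY control Pdgfra was past 1.5-fold in sub-clusters 1, 2 and 4 but at 0.52 in sub-cluster 3. Tcf21 in KO E11.5 was above the XY control in sub-cluster 1, at 311 against 223 CPM, and below it in sub-cluster 3, at 172 against 237 CPM. The log2 ratio of 0.07 over the whole mesenchyme thus summed differences in opposite directions. In the nephric sub-cluster 4, Nr2f1 in KO E11.5 was above the XY control, at 370 against 291 CPM, although it was below it in sub-cluster 3, at 329 against 453 CPM.

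**Figure D4:**
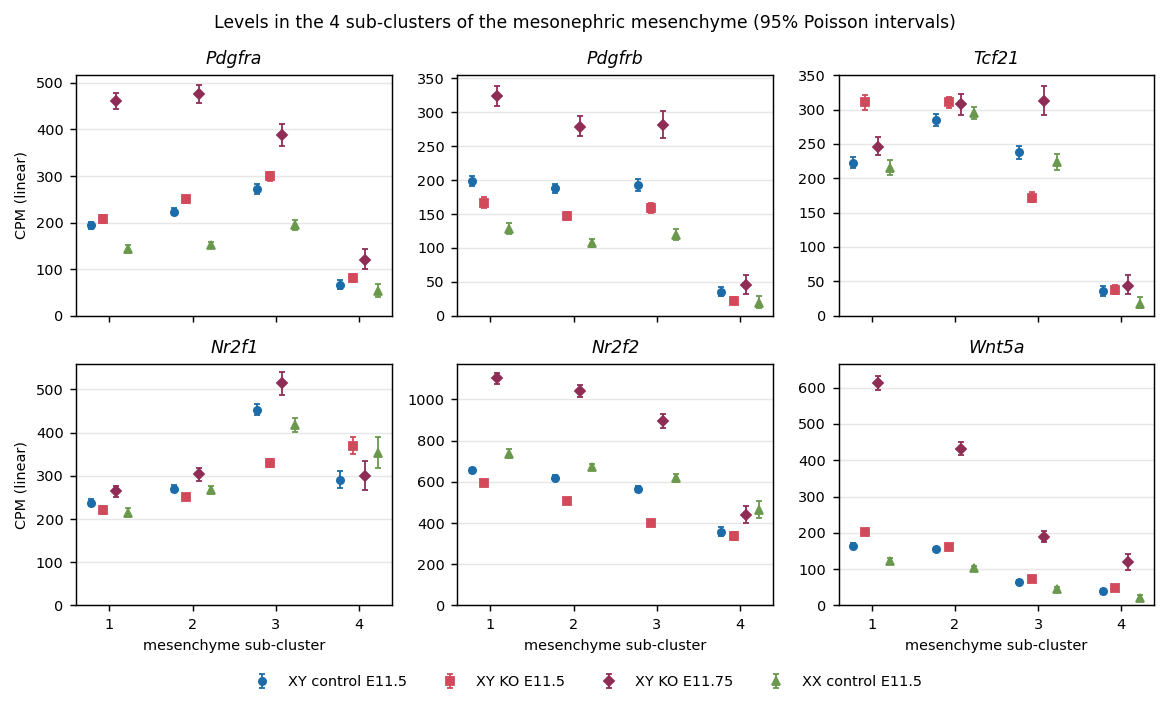
CPM on linear axes (vertical) in the 4 sub-clusters of the mesonephric mesenchyme (horizontal), 1 panel a gene, with 1 point a pool and 95% Poisson intervals. Wnt5a falls off from sub-clusters 1 and 2 to 3 and 4 in every pool, Nr2f1 does not, and KO E11.75 lies above the other pools for Wnt5a and Pdgfra throughout.

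Shares of cells with a UMI were compared after thinning each cell to 3000 UMIs, with shallower cells left out. In interstitial progenitors this left 891, 1042, 492 and 225 cells of the XY control, KO E11.5, KO E11.75 and the XX control. A Pdgfra UMI was found in 54.1% (50.8 to 57.4, Clopper-Pearson), 56.4% (53.4 to 59.5), 79.5% (75.6 to 83) and 39.6% (33.1 to 46.3) of them, in the same order. The unthinned Pdgfra shares were 59.7%, 64.6%, 81.3% and 81.1%, which puts the deep XX cells at the level of KO E11.75. The thinned order matched that of the CPM, and in germ cells, at the same thinned depth, 0% to 3.16% of cells held a Pdgfra UMI. The 0% was 0 of 84 XX germ cells, which allows a share of up to 3.57% at the thinned depth. Without thinning these cells held 26 Pdgfra UMIs, at a median of 40644 UMIs a cell, against 13830 UMIs in XX interstitial progenitors.

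For Wnt5a the thinned shares of interstitial progenitors were 36.6%, 46.4%, 70.7% and 31.6% in the same order of pools, and for Pdgfrb 24.7%, 15.4%, 28.7% and 18.7%. Tcf21 was found in 63% to 77.3% and Nr2f2 in 66.5% to 85.8% of interstitial progenitors. Nr2f1 was found in 20.5% to 34.7% of them but in 50.7% to 53.7% of mesenchymal cells. In mesonephric epithelium the ranges were 58.3% to 84.6% for Nr2f2 and 28.7% to 38.4% for Nr2f1. Supporting-like cells gave 28.4% to 38.4% for Nr2f1. Most interstitial progenitors therefore held a Tcf21 UMI, and most an Nr2f2 UMI, at this depth, and a minority held one of Pdgfrb or of Nr2f1.

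The number of the 6 genes with a UMI in a thinned cell differed most for KO E11.75. In interstitial progenitors, 4 genes were found in 19.9%, 20%, 35% and 20% of cells of XY control, both KO stages and XX control. All 6 were found in 1.01%, 0.864%, 2.24% and, in the XX pool, 0 of 225 cells, which allows a share of up to 1.33% at this depth. In these XX cells all 6 were found in 3.14% at 5000 UMIs and in 25.6% without thinning. In the mesenchyme all 6 were found in 1.35%, 1.06%, 5.33% and 0.47% of cells.

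**Figure D5:**
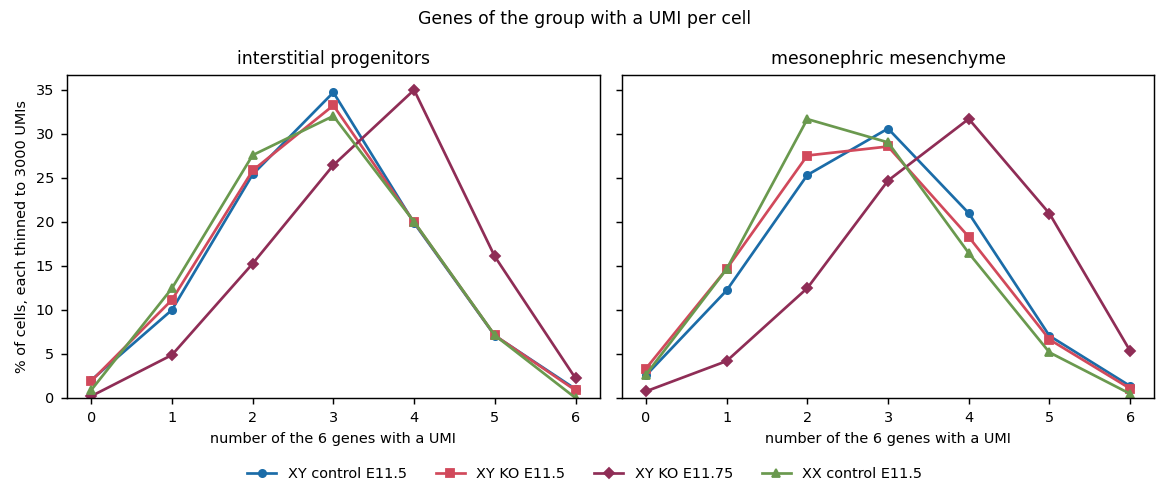
Share of cells (vertical, percent) by the number of the 6 genes with a UMI (horizontal), after each cell was thinned to 3000 UMIs, in 2 cell types and 4 pools, with no intervals drawn. In both types the curve of KO E11.75 peaks at 4 genes and those of the other pools at 2 or 3.

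Within interstitial progenitors the 2 PDGF receptors were found together about as often as their separate shares give, or less. Both were found in 11.6% (9.53 to 13.8) of thinned cells of the XY control, where the product of the 2 shares was 13.4%. The ratio of the observed share to the product was 0.865, 0.953, 0.910 and 0.722 in the 4 pools, and in the mesenchyme it was 1.07, 1.10, 1.05 and 1.13. In interstitial progenitors Pdgfrb gave ratios of 1.25 to 1.31 with Nr2f1 in the 4 pools, 1.09 to 1.17 with Nr2f2, 1.02 to 1.17 with Tcf21 and 0.755 to 1.33 with Wnt5a, while Pdgfra with Nr2f1 gave 0.648 to 0.905. In the mesenchyme Pdgfrb with Nr2f1 gave 0.987 to 1.05. These ratios rest on 19 to 75 cells with both Pdgfrb and Nr2f1 in each pool, and a weak association in sparse counts is a description only.

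Genes with the most similar pattern were ranked by the mean over the 4 pools of the Pearson correlation of log2(CPM + 10) over the 11 to 13 cell types with at least 50 cells, among 13155 genes. The points share pools and depths, and no p is given. For Pdgfra these were Lbh (0.94), Atrnl1 (0.91) and Vstm4 (0.90), and for Pdgfrb they were Col1a1 (0.97), Pde3a (0.95) and Cd248 (0.95), where Col1a1 encodes a chain of type I collagen. Tcf21 was most like Gucy1a1 (0.97), Wnt5a (0.93) and Creb3l1 (0.92), and Wnt5a most like Wdr86 (0.93), Tcf21 (0.93) and Tpm1 (0.92). Nr2f2 was most like Rcn3 (0.95), Zfp503 (0.95) and Ctdsp2 (0.95). Nr2f1 was most like A830082K12Rik (0.96), an antisense gene, and then like Sfrp1 (0.90), a secreted WNT inhibitor, and Rnd3 (0.89). The annotated spans of Nr2f1 (minus strand) and A830082K12Rik (plus strand) overlap by 1741 bases, at the 5′ ends of both. UMIs of 3′ chemistry are counted from the other ends. Mixing of reads between these 2 genes was not tested. Within the group the 2 closest genes were Tcf21 and Wnt5a, and the 2 furthest apart were Tcf21 and Nr2f1, at 0.46.

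Other genes of the same pathways were taken from lists and counted past 1.5-fold among those with at least 100 UMIs over both pools, against the same percentages of all genes as above. Of the 4 PDGF ligands, 1 of 3 counted was past 1.5-fold higher in KO E11.5 in both interstitial progenitors and mesenchyme, Pdgfd in each, which encodes a ligand of PDGFRB. Pdgfd was at 3.79 CPM in the mesenchyme of the XY control, 7.66 in KO E11.5 and 11.3 in KO E11.75, with log2 ratios of 1.01 and 1.57. In KO E11.75, 0 of 2 PDGF ligands counted were past it in interstitial progenitors and 1 of 3 in the mesenchyme. In interstitial progenitors of KO E11.5 Pdgfd was at 0.75 and Pdgfa, which encodes a ligand of PDGFRA, at 0.31. In XX control cells Pdgfc and Pdgfa were lower in interstitial progenitors, at -0.97 and -0.92, both of the 2 counted, and 0 of 3 were past it in the mesenchyme.

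Of 13 WNT5A receptor and planar polarity genes, 10 were counted in interstitial progenitors of the KO pools. In KO E11.5, 1 was past 1.5-fold lower, the WNT5A receptor gene Ror1 at -0.95 (30.3 and 15.6 CPM), and none higher, and in the mesenchyme 1 of 13 was lower, Fzd5 at -0.96 (1.85 and 0.943 CPM). In KO E11.75, 2 were higher, Ror2 at 1.09 and the frizzled receptor gene Fzd7 at 0.98, and none lower, with a list median of 0.46. In the mesenchyme of KO E11.75, 4 of 13 were higher, with Fzd7 at 0.71 and Ror2 at 0.68 the largest, and in the XX pool 1 of 13 was lower there, Celsr1 at -0.59, with 0 of 9 past it in interstitial progenitors. Ror2, Fzd7 and the ligand Wnt5a were thus on the same side of the XY control at E11.75, where genes in general were also more often higher than lower.

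Of 5 partners and relatives of TCF21, 3 counted in interstitial progenitors and 4 in the mesenchyme, none was past 1.5-fold in KO E11.5 or the XX control in either type. In KO E11.75, Tcf4 was at 0.68 in interstitial progenitors, and Tcf15 was at -1.17 in the mesenchyme, at 10.8 and 4.76 CPM. Of 5 relatives and binding proteins of the COUP-TF factors, 2 of 4 counted were higher in interstitial progenitors of KO E11.75, Gata4 at 0.71 and Zfpm2 at 0.70, and 1 was lower, Nr2f6 at -0.73. ZFPM2 binds both GATA4 and NR2F2, and its gene was at 0.87 in the mesenchyme of that pool, where Bcl11a was past 1.5-fold lower at -0.60. In KO E11.5, 0 of 5 were past it in either type. In the XX control Gata4 was the single gene past it in each type, lower at -0.64 and -1.07.

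Among 10 further interstitial regulators, most of those past the threshold were higher in KO E11.75. In interstitial progenitors of KO E11.5, 1 of 9 counted was higher and 1 lower, Gli1 at 0.84 and Nes at -0.94. In KO E11.75, 5 of 9 were higher and none lower, led by the hedgehog mediators Gli2 at 1.22 and Gli1 at 1.17, with a list median of 0.88. In XX control cells 2 of 8 were lower, Gli2 at -0.89 and Ptch1, which encodes the hedgehog receptor, at -0.70. In the mesenchyme 2 of 10 were lower in KO E11.5 and none higher. In KO E11.75, 5 were higher there, with Ptch1 at 1.17 and Gli2 at 1.03, against 1 lower, Lhx2 at -3.71. Lhx2 was also the 1 gene past it in the mesenchyme of the XX control, at -3.88. Lhx2 was low throughout, at 5.87 CPM in the mesenchyme of the XY control and 0.414 CPM in KO E11.75.

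Of 13 mesenchymal genes, 10 were counted in interstitial progenitors. In KO E11.5, 3 were lower and none higher there, led by Osr1 at -0.87 and Dcn at -0.82, which encodes the proteoglycan decorin. In KO E11.75, 7 were higher and 1 lower, led by Lum, another small proteoglycan gene, at 1.39 and Dlk1 at 1.05. In the XX control 1 was higher, Lum at 0.66. In the mesenchyme, where all 13 were counted, 2 were higher in KO E11.5, Dlk1 at 0.74 and Lum at 0.66. In KO E11.75, 7 were higher and 2 lower in the mesenchyme, the latter Foxf1 at -1.98 and Meox1 at -1.51. In XX control cells 5 were lower there, led by Foxf1 at -1.52 and Col1a2 at -0.81.

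Of 6 steroidogenic genes, 5 were in the table and 1 or 2 were counted in interstitial progenitors, with Nr5a1 at -0.13, 0.87 and -1.03 in the 2 KO stages and the XX control. In the mesenchyme 4 were counted, all at 5.96 CPM or less in the XY control, of which 4 were lower in KO E11.5, 2 in KO E11.75 and 1 in the XX pool. Mural genes mark the cells of vessel walls, which are known to express Pdgfrb. In interstitial progenitors Rgs5 was at -1.16 in KO E11.5, the 1 mural gene of 4 past the threshold. In KO E11.75, 2 were lower, Rgs5 at -1.45 and Acta2 at -1.04, and 1 higher, and in the XX pool 1 of 3 was higher, Acta2 at 1.22. In the mesenchyme 1 was higher and 1 lower in each KO pool, with Acta2 at 0.89 in KO E11.5 and Cspg4 at 1.05 in KO E11.75, and 0 in the XX pool. The summed level of the 4 mural genes in interstitial progenitors was 246 CPM in the XY control, 189 and 152 CPM in KO E11.5 and E11.75 and 373 CPM in the XX pool, with no gene at 0. Both this sum and Pdgfrb were below the XY control in KO E11.5, whereas in KO E11.75 the sum was below it and Pdgfrb above it. The part of mural cells in the Pdgfrb level was not tested.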

How the data were processed

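The authors aligned and counted reads with Cell Ranger 6.1.1 against mm10, per the labels and the methods of the study, and deposited raw UMI counts per gene and cell for all 4 samples. They removed XY cells by limits on mitochondrial and globin content, which differed between samples, and on UMIs and genes, filtered the XX sample by cluster, removed doublets with DoubletFinder, integrated the samples in Seurat to name cells, and left out 1 cluster. The mitochondrial percent of each cell is the value the authors deposited. All nonzero counts were whole.

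Here, UMIs were summed per deposited cell type and sample (Python 3.11.15, pandas 2.3.3, scipy 1.17.1). Log2 ratios used a prior count of 0.5 and genes with 100 or more UMIs in the samples compared, and past 1.5-fold is the only call made, since 1 sample per group allows no test. Thinning used fixed random seeds. Intervals are at 95%, and a count of 0 is given with the share that 3 counts would make. The scripts were tested on simulated counts. Positions and 3′ UTRs came from GENCODE M21. Of the 21495 symbols, 98.6% were found there. The genes, gene lists and named genes (the 2 of a list with the largest ratios and the 3 genes of most similar pattern) were chosen with earlier results of these data known. Alternatives were TMM factors (edgeR 4.0.16), other totals, priors, minimum counts and thresholds, the mean of CPM over cells, deep cells only, single runs, other thinning depths and other measures of likeness. Separate sub-clusters were added after seeing the data. Values of some genes of these lists are not reported here.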

Additional observations from a re-analysis of the deposited data

Results flagged for a closer look

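Pdgfra in XY KO E11.5, set against the XY control, differed in direction between cell types. Its log2 ratio in pre-supporting cells was 0.71 (0.52 to 0.90), with 53.9 CPM in the XY control and 88.2 CPM in XY KO E11.5, and in endothelial cells it was -1.41 (-2.19 to -0.74), with 17.7 and 6.55 CPM. It was singled out because the same contrast was past 1.5-fold in opposite directions in cell types of the same 2 pools. Of 8 cell types compared, 2 were past it higher and 2 lower: the others were mesonephric epithelium, with 81.9 CPM in the XY control and 132 CPM in XY KO E11.5, and mesonephric tubules, with 16.2 and 10.7 CPM. Of all genes, 2.71% were past it higher in pre-supporting cells and 1.65% in mesonephric epithelium, and 4.51% were past it lower in endothelial cells and 6.05% in mesonephric tubules. The endothelial value rests on 97 and 21 UMIs, and germ cells of the same pools gave 5.01 and 9.78 CPM. In XY KO E11.5 both types past it lower were thus near the germ cell background, at 6.55 and 10.7 CPM. The difference between the cell types was not tested, since each pool is 1 sample.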

How the results depend on the processing

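No paired analysis was possible because each group had 1 sample and no comparison came from a test. Of 36 log2 ratios under 7 alternatives, no ratio past 1.5-fold changed sign. The largest shift was 0.18, with run 2 only, which is too small to turn the sign of such a ratio. There were 5 sign changes, in 4 ratios near 0. TMM factors moved ratios by -0.16 to 0.14, and 28 of the 36 left their counting interval. The number of genes past 1.5-fold in interstitial progenitors of KO E11.5 was 1, and became 2, with Wnt5a added, under TMM factors, under totals that left out Gm42418 and the mitochondrial, globin and ribosomal protein genes, with run 2 only and with the mean of CPM over cells, and 0 at a 2-fold threshold. In the XX control the number in interstitial progenitors was 1 and became 0 under TMM factors, with run 2 only and at 2-fold, and in the mesenchyme it was 1 and became 0 at 2-fold, 2 in sub-cluster 2 and 3 in sub-cluster 4. In the mesenchyme of KO E11.75 the number was 4 and became 2 under TMM factors, in sub-cluster 3 and in sub-cluster 4, 1, Wnt5a, at 2-fold, and 3, without Pdgfrb, with cells of at least 3000 UMIs. In the mesenchyme of KO E11.5 it was 0 and became 1, Pdgfrb, in sub-cluster 4. Prior, minimum counts, cells with at least 3000 UMIs and run 1 only left each number within 1.5 times. Of 18 genes of most similar pattern, 8 were kept with Spearman correlations, 12 with log2(CPM + 1) and 18 at a minimum of 2000 UMIs, and for Wnt5a 0 of 3 were kept in each of the first 2. Shares of cells with a UMI depended on the thinning depth: at 2000 UMIs 45 left their interval at 3000 UMIs and 3 did not. Precision is limited by few cells in interstitial progenitors of the XX control, with 225 thinned cells, and by few UMIs in sub-cluster 4.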
